A study of Mus musculus with 24 samples.

Results

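The cyclins and cyclin-dependent kinases (CDKs) that carry cells from G1 into S phase were followed across the genotypes of mouse embryonic fibroblasts (MEFs). The set held 9 genes, taken by name from the 41710 genes listed in both expression tables: the D-type cyclins Ccnd1, Ccnd2 and Ccnd3, their kinase partners Cdk4 and Cdk6, the E-type cyclins Ccne1 and Ccne2, cyclin A2 (Ccna2) and Cdk2. D-type cyclins join CDK4 or CDK6 early in G1 and phosphorylate the retinoblastoma protein, which then releases E2F transcription factors. E2F factors drive transcription of the E-type cyclins and cyclin A2, which join CDK2 to start and sustain DNA replication. Myc is a transcription factor tied to growth and proliferation, and Mlx is the partner of MondoA and ChREBP in a parallel network that binds similar E-box sequences.

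All cells came from embryos with floxed Myc and/or Mlx alleles and a CreER transgene driven by the ROSA26 promoter, and each culture pooled cells of at least 6 embryos. MycKO, MlxKO and DKO (both genes lost) cells were made with 500 nM 4-hydroxytamoxifen (4OHT), whereas WT cells kept their floxed genes and received vehicle or no 4OHT. Immortalized MEFs were transduced with a lentivirus carrying the SV40 T antigen, which binds the retinoblastoma family and p53, before excision. Each of the 8 groups (WT, MlxKO, MycKO and DKO, in primary and in immortalized MEFs) had 3 poly-A RNA-seq libraries, which the study calls biological replicates for the primary cells. The labels do not say that these were separate cultures, so p-values measure the spread between libraries, which may be technical. In comparisons with WT, genotype cannot be told apart from 4OHT exposure, because only the knockout groups received 4OHT. The knockout groups were given the same dose, so comparisons between them are matched for it. Genotype cannot be told apart from the line in any comparison. Each knockout came from its own floxed line, and the WT cells came in most cases from 1 line. All 3 knockout groups of a table were set against the same 3 WT libraries, so these comparisons share their control. In bulk RNA, fewer cells of a type and less RNA per cell cannot be told apart.

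Libraries held 15986856 to 20966163 reads (median 18208568), so 3 reads were worth 0.145 to 0.196 of the deposited read counts scaled to library size (CPM). Myc was at 25.8 to 26.8 CPM in primary MycKO against 89.8 to 100.1 in primary WT libraries, and Mlx was at 13.0 to 14.0 CPM in primary MlxKO against 20.53 to 26.0 in WT. Primary DKO libraries held 19.9 to 22.9 CPM of Myc and 9.73 to 12.0 of Mlx. In immortalized MEFs, Myc was at 9.96 to 17.2 CPM in MycKO and 4.25 to 8.02 in DKO, and Mlx was at 12.1 to 17.0 in MlxKO and 14.5 to 18.04 in DKO against 20.51 to 25.1 in WT. The difference of Mlx in immortalized DKO against WT was not called (-0.44 ± 0.16, limma adjusted p = 0.0694), and was called without WT library 4 (-0.52 ± 0.16, 0.034). One library stood apart. Immortalized WT library 4 correlated at r = 0.943 to 0.950 with the other WT libraries (2 and 3), which correlated at 0.992 with each other, and it held 177 CPM of Myc against 48.1 and 39.9. Called differences of the members from WT in immortalized cells are therefore given with and without it. Primary MycKO library 10 also differed from libraries 9 and 11 in several members and is named where it decides a call.

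The 9 genes lie on separate stretches of the genome (GRCm39, GENCODE vM39). The D cyclins are Ccnd1 (chr7:144483668-144493662, minus strand), Ccnd2 (chr6:127102125-127129156, minus) and Ccnd3 (chr17:47815767-47910624, plus). Their kinases are Cdk4 (chr10:126895180-126903789, plus) and Cdk6 (chr5:3391485-3581008, plus). The S-phase genes are Ccne1 (chr7:37797404-37808264, minus), Ccne2 (chr4:11190303-11204947, plus), Ccna2 (chr3:36619014-36626299, minus) and Cdk2 (chr10:128533796-128540963, minus). At most 1.94% of the 50-base stretches of a member's transcripts (in Ccnd3) also occur, letter for letter, in transcripts of another gene. Copies with mismatches were not searched, so reads shared with them were not tested.

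Promoters were searched on both strands, from 250 bases before to 50 bases after the start of the canonical transcript, for the E-box CACGTG bound by the Myc and Mlx networks, the paired E-box, the E2F site TTTNNCGC and the AP-1 site TGANTCA. Cdk4 held 4 CACGTG matches, which begin 143, 89 and 69 bases before and 19 bases after the start, and Cdk6 held 1, which begins 235 bases before. Of 41179 promoters of the same length, 6.25% held CACGTG, and of the 21590 among them of protein-coding genes, 7.86% did. TTTNNCGC was found in Ccnd3 (226 bases before the start), Cdk6 (213 before) and Cdk2 (97 before, minus strand) and in 4.53% of all promoters. Its share among promoters of protein-coding genes was 6.27%. Neither the paired E-box (0.0899% of promoters) nor TGANTCA (7.92%) was found in the 9 windows, and Ccnd1, Ccnd2, Ccne1, Ccne2 and Ccna2 held none of the 4 motifs. The sequences with a match are shown for the 250 bases before the start, on the gene's strand, with matches in capitals: Cdk4 (chr10:126899125-126899374), Cdk6 (chr5:3393658-3393907), Ccnd3 (chr17:47904114-47904363) and Cdk2 (chr10:128540964-128541213).
Cdk4 promoter: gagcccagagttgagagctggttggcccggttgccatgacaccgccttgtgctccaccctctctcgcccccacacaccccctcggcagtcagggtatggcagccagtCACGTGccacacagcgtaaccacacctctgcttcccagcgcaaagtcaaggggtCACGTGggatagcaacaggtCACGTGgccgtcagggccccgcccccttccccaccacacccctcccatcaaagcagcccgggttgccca
Cdk6 promoter: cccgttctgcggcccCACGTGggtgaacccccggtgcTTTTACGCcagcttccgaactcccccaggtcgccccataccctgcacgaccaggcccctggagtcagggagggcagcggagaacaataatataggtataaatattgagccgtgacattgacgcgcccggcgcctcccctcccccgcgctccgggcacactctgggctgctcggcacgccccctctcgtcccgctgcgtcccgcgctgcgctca
Ccnd3 promoter: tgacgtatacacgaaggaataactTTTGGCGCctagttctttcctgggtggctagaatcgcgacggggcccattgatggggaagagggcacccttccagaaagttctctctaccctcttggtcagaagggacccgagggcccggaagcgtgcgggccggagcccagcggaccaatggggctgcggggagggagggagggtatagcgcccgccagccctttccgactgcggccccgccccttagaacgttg
Cdk2 promoter: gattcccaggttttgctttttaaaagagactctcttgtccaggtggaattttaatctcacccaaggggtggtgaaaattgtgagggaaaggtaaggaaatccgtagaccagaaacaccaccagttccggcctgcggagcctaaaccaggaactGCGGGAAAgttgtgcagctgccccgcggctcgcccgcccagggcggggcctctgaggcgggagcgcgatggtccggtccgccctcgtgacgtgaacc
These matches are letters in a window and were not tested as binding sites.

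Per kilobase of canonical transcript, Cdk4 was the most abundant member in primary WT MEFs at 128 ± 11.4 CPM per kb (SD, n = 3). It was followed by Ccnd2 (105 ± 5.82), Ccnd1 (76.1 ± 3.78), Ccnd3 (72.6 ± 1.72), Ccna2 (38.5 ± 0.75), Cdk2 (19.1 ± 0.29), Ccne1 (18.1 ± 0.48), Ccne2 (5.48 ± 0.61) and Cdk6 (4.08 ± 0.19). Libraries of neighbours in this order overlapped only for Ccnd1 and Ccnd3, and dividing by the union of exons exchanged Ccnd3 with Ccna2 and Cdk2 with Ccne1. The order was different in immortalized WT MEFs, with Cdk4 (123 ± 7.92 CPM per kb), Ccna2 (69.1 ± 16.6), Ccnd1 (59.4 ± 38.6), Cdk2 (43.5 ± 0.59), Ccnd3 (30.3 ± 5.44), Ccnd2 (28.8 ± 8.08), Ccne1 (18.1 ± 0.69), Ccne2 (14.3 ± 3.94) and Cdk6 (1.99 ± 0.90). The order without WT library 4 (n = 2) was Cdk4 (125), Ccnd1 (81.7), Ccna2 (59.5), Cdk2 (43.8), Ccnd2 (33.3), Ccnd3 (31.6), Ccne1 (17.9), Ccne2 (12.1) and Cdk6 (2.49), so Ccnd1 passed Ccna2 and Ccnd2 passed Ccnd3. With all 3 libraries, values overlapped between Ccna2, Ccnd1 and Cdk2 in turn, between Ccnd3 and Ccnd2, and between Ccne1 and Ccne2. Dividing by the union of exons moved Ccnd3 from rank 5 to 8, Ccnd2 from 6 to 4, Cdk2 from 4 to 5 and Ccne2 from 8 to 6. The tables were normalized separately, so levels were not tested between primary and immortalized cells.

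In primary MEFs, the S-phase genes were lower after Myc loss with Mlx intact or lost, and the D cyclins Ccnd1 and Ccnd2 were higher where Mlx was intact. The study describes primary MycKO and DKO cells as growth-arrested when sequenced, and MlxKO cells as growing nearly as WT cells did. The part of this growth state in the differences was not tested. A gene was called where limma's moderated test, with Benjamini-Hochberg adjustment over all genes tested, gave an adjusted p under 0.05, and log2 fold changes are on the log2(CPM + 1) scale with their SE. All 9 members passed the filter on low values in both tables. In MycKO against WT, 2 members were called higher and 4 lower, where 20.4% of all 13101 genes tested were called higher and 21.9% lower.

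Ccne2, an E-type cyclin that activates CDK2, was at 28.4, 25.4 and 31.7 CPM in WT, 20.0, 22.5 and 21.4 in MlxKO, 13.4, 13.2 and 11.1 in MycKO and 8.74, 9.72 and 10.0 in DKO. These ranges did not overlap between any pair of groups. Relative to WT, Ccne2 fell by 1.12 ± 0.11 on the log2 scale in MycKO (limma adjusted p = 4.23e-07), by 0.40 ± 0.11 in MlxKO (0.0246) and by 1.49 ± 0.11 in DKO (1.36e-08). Ccna2, which partners CDK2 through S phase, was at 115, 112 and 116 CPM in WT, 91.3, 93.9 and 98.4 in MlxKO, 62.1, 73.3 and 61.9 in MycKO and 56.3, 54.8 and 52.7 in DKO, again with no overlap. It fell by 0.79 ± 0.07 in MycKO (limma adjusted p = 2.33e-07), by 0.27 ± 0.07 in MlxKO (0.0219) and by 1.05 ± 0.07 in DKO (6.95e-09). Ccne2 and Ccna2 were the 2 members called in MlxKO, both lower, where 5.14% of all genes were called lower and 3.75% higher. Each of those calls was lost without any 1 of 4 libraries, which were WT 1 and 3 and MlxKO 5 and 7 for Ccne2 (limma adjusted p = 0.0646 to 0.0888) and WT 1 and 2 and MlxKO 5 and 6 for Ccna2 (0.0598 to 0.0783).

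Ccne1, the other E-type cyclin, was at 38.6, 36.6 and 37.4 CPM in WT, 30.0, 36.1 and 34.5 in MlxKO, 23.1, 24.7 and 25.1 in MycKO and 20.2, 21.4 and 20.7 in DKO. The MycKO and DKO libraries lay below all WT and MlxKO libraries. Ccne1 fell by 0.61 ± 0.08 in MycKO (limma adjusted p = 1.61e-05) and by 0.82 ± 0.08 in DKO (4.52e-07), and its difference of -0.16 ± 0.08 in MlxKO was not called (0.233). Cdk2, the kinase of S-phase entry, was at 43.9, 44.3 and 45.2 CPM in WT, 42.5, 37.6 and 39.7 in MlxKO, 34.2, 33.9 and 32.9 in MycKO and 32.9, 33.8 and 28.6 in DKO. Its MycKO and DKO libraries overlapped each other but not those of the other groups. Cdk2 fell by 0.39 ± 0.08 in MycKO (limma adjusted p = 0.000623) and by 0.48 ± 0.08 in DKO (8.25e-05). For these 4 genes the interaction of the losses, which is the effect of Myc loss in Mlx-null cells minus that in Mlx-intact cells, ranged from -0.05 ± 0.11 (Ccne1) to 0.07 ± 0.11 (Cdk2) and was not called. Only WT lacked 4OHT, so an effect of 4OHT common to the knockout groups would enter this term and cannot be told apart from it.

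Ccnd1, the D cyclin most often induced by mitogens, was at 289, 303 and 274 CPM in WT, 295, 284 and 272 in MlxKO, 360.3, 389.6 and 384 in MycKO and 184, 176 and 195 in DKO. Every MycKO library was above and every DKO library below all WT libraries. Ccnd1 rose by 0.39 ± 0.06 in MycKO (limma adjusted p = 8.04e-05) and fell by 0.64 ± 0.06 in DKO (3.18e-07), and its difference was -0.02 ± 0.06 in MlxKO (0.861). The interaction for Ccnd1 was -1.002 ± 0.09 (limma adjusted p = 7.63e-07).

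Ccnd2, another D cyclin, was at 625, 692 and 686 CPM in WT, 764, 710.4 and 615 in MlxKO, 954, 1006 and 932 in MycKO and 681, 658 and 671 in DKO. Its MycKO libraries were above all others, and those of the other genotypes overlapped. Ccnd2 rose by 0.53 ± 0.07 in MycKO (limma adjusted p = 2.25e-05), while its difference in DKO was 0.01 ± 0.07 (0.956). The interaction was -0.58 ± 0.10 (limma adjusted p = 0.000968). Ccnd1 and Ccnd2 were the only members with a called interaction in primary cells, both negative, where 6.07% of all genes had a negative and 7.47% a positive one.

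Cdk4, the kinase partner with 4 E-box matches, was at 280.2, 280.2 and 239 CPM in WT, 253, 259.7 and 302 in MlxKO, 257, 200.2 and 259.8 in MycKO and 204, 187 and 197 in DKO. The DKO libraries lay below all WT and MlxKO libraries and overlapped those of MycKO through library 10. Cdk4 fell by 0.44 ± 0.10 in DKO against WT (limma adjusted p = 0.00128), and its difference of -0.16 ± 0.10 in MycKO was not called (0.19). Its interaction of -0.30 ± 0.14 was called only without MycKO library 10 (-0.42, limma adjusted p = 0.0086). Cdk6 was at 46.8, 50.02 and 45.8 CPM in WT, 42.3, 42.8 and 38.4 in MlxKO, 49.1, 68.6 and 50.3 in MycKO and 41.7, 34.5 and 34.3 in DKO. The highest value was again that of MycKO library 10. Cdk6 fell by 0.36 ± 0.11 in DKO against WT (limma adjusted p = 0.0122), a call lost without DKO library 14 or 15 (0.0543 to 0.0551). Ccnd3 ranged from 119 to 169 CPM over the 12 libraries and was called in none of the 6 within-table comparisons of primary cells by limma, edgeR or DESeq2. The lowest unadjusted p of limma among these was 0.207. Without MycKO library 10 it was called higher in MycKO against WT, by 0.18 on the log2 scale (limma adjusted p = 0.035).

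In DKO against WT, 7 members were called lower (Ccna2, Ccnd1, Ccne1, Ccne2, Cdk2, Cdk4 and Cdk6), where 25.5% of all genes were called lower and 24% higher. In DKO against MycKO, which tests Mlx loss in Myc-null cells, 5 members were called lower, where 11% of all genes were called lower and 10.6% higher. Ccnd1 fell by 1.03 ± 0.06 (limma adjusted p = 6.7e-09), Cdk6 by 0.58 ± 0.11 (0.00111), Ccnd2 by 0.52 ± 0.07 (6.23e-05), Ccne2 by 0.37 ± 0.11 (0.0192) and Ccna2 by 0.26 ± 0.07 (0.0132). The Ccna2 call was lost without DKO library 15 (limma adjusted p = 0.0638) and the Ccne2 call without MycKO library 9 or DKO library 13 (0.0747 to 0.0874). Cdk4 differed by -0.27 ± 0.10 (limma adjusted p = 0.0533), and without MycKO library 10 by -0.40 (0.001). DESeq2 called Cdk4 with all libraries (-0.29, DESeq2 adjusted p = 0.0266). It was also called without WT library 3 or MlxKO library 7, as was Ccne1 (-0.22) without MlxKO library 5 (limma adjusted p = 0.0484). In DKO against MlxKO, which tests Myc loss in Mlx-null cells, 6 members were called lower (Ccna2, Ccnd1, Ccne1, Ccne2, Cdk2 and Cdk4), where 25.9% of all genes were called lower and 23.3% higher. Here Ccnd1 fell by 0.61 ± 0.06 (limma adjusted p = 5.18e-07), and the difference of Ccnd2 was -0.05 ± 0.07 (0.597).

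**Figure D1:**
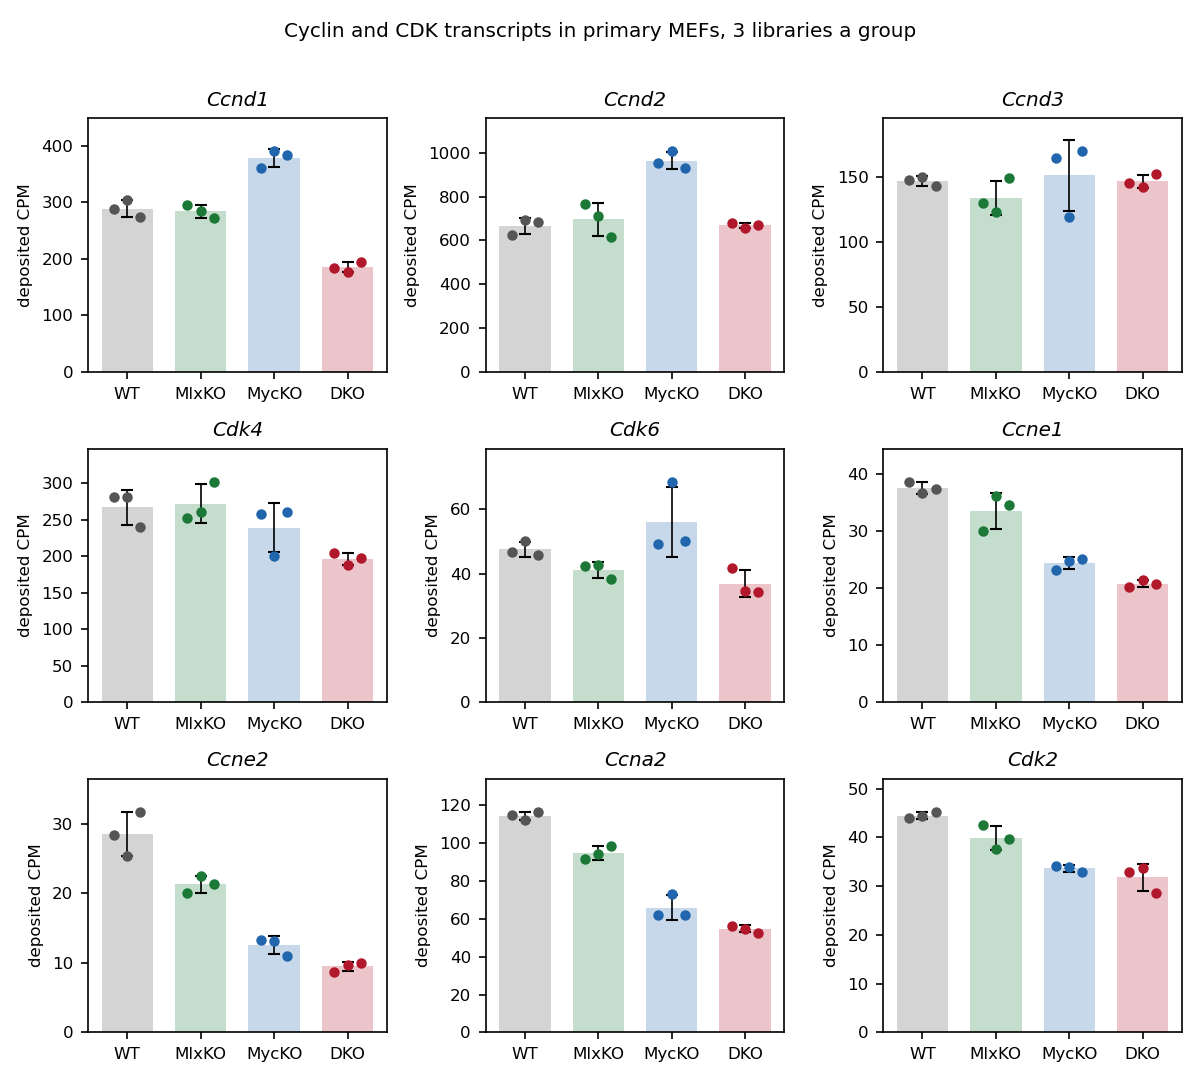
Deposited CPM of the 9 genes in primary MEFs by genotype, with points for single libraries, bars for group means and error bars for SD (n = 3). The 4 S-phase genes (bottom rows) were lower in MycKO and DKO than in WT, whereas Ccnd1 was highest in MycKO (360.3 to 389.6) and lowest in DKO (176 to 195).

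In immortalized MEFs the S-phase genes did not fall together, and the largest differences from WT were in Ccnd1, Cdk6 and Ccnd3. The study reports that all immortalized lines proliferated and that most immortalized MycKO cells were tetraploid or pseudo-tetraploid. The part of ploidy in the differences was not tested. In MycKO against WT, 5 members were called higher and 1 lower, where 24.4% of 12880 genes were called higher and 23.5% lower. Without WT library 4 there were again 5 higher and 1 lower, but Ccna2 took the place of Ccnd2. In MlxKO against WT, 2 members were higher and 1 lower (19.1% of all genes higher, 19.9% lower), and without WT library 4 these were 2 and 2, with Ccnd2 as the added gene (-0.32 ± 0.12, limma adjusted p = 0.0363). In DKO against WT, 2 members were higher and 2 lower (10.4% of all genes higher, 8.51% lower), with the same counts without WT library 4. The shares of all genes given here and below come from fits with every library. They do not belong to the counts made without WT library 4. When only the compared groups were fitted, the MycKO calls of Ccnd1, Ccnd2, Cdk2 and Cdk6 (limma adjusted p = 0.0584 to 0.12) and the DKO calls of Ccnd1, Ccnd2 and Ccnd3 (0.0892 to 0.127) were lost.

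Cdk6 was at 32.1, 25.8 and 11.7 CPM in WT libraries 2, 3 and 4, 34.4, 36.3 and 33.0 in MlxKO, 36.7, 48.1 and 46.1 in MycKO and 7.85, 7.30 and 6.02 in DKO. The DKO libraries, at 109 to 138 reads each, were below every other library, and WT library 4 was the nearest to them. Cdk6 fell by 2.47 ± 0.27 in DKO against MycKO (limma adjusted p = 3.08e-05) and by 2.15 ± 0.27 against MlxKO (0.000175), and neither comparison uses the WT libraries beyond the shared estimate of spread. Against WT it fell by 1.48 ± 0.27 in DKO (limma adjusted p = 0.00364), and by 1.89 ± 0.15 without WT library 4 (1.37e-06). In MycKO, Cdk6 rose by 0.98 ± 0.27 (limma adjusted p = 0.0111), or by 0.57 ± 0.15 without WT library 4 (0.00583). In MlxKO its difference of 0.66 ± 0.27 (limma adjusted p = 0.0718) was called only without WT library 2 (0.0213), and was 0.25 ± 0.15 without WT library 4 (0.185). The interaction for Cdk6 was -3.13 ± 0.39 (limma adjusted p = 7.54e-05), or -2.72 ± 0.20 without WT library 4 (1e-07).

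Cdk4 was at 245, 275 and 247 CPM in WT, 316, 379 and 360.0 in MlxKO, 363, 326 and 335 in MycKO and 279.7, 256 and 274 in DKO. Libraries lacking 1 of the genes were above all WT libraries, and those of DKO overlapped WT. Cdk4 rose by 0.41 ± 0.10 in MycKO (limma adjusted p = 0.00585) and by 0.45 ± 0.10 in MlxKO (0.00506), with a difference of 0.08 ± 0.10 in DKO (0.622). Leaving out WT library 4 gave 0.39 ± 0.11 (limma adjusted p = 0.00791), 0.43 ± 0.11 (0.00561) and 0.05 ± 0.11 (0.765). The interaction was -0.79 ± 0.14 (limma adjusted p = 0.000994), or -0.77 ± 0.15 without WT library 4 (0.000556).

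Ccnd3 was at 53.9, 73.9 and 56.0 CPM in WT, 111, 145 and 122 in MlxKO, 129, 126 and 119.9 in MycKO and 93.5, 84.1 and 80.4 in DKO. The order WT, DKO and then both single knockouts held without overlap, and WT library 4 lay within the range of its group. Ccnd3 rose by 1.03 ± 0.13 in MycKO (limma adjusted p = 8.23e-05), by 1.04 ± 0.13 in MlxKO (0.000317) and by 0.49 ± 0.13 in DKO (0.0247). With WT library 4 left out these were 0.98 ± 0.14 (limma adjusted p = 5.98e-05), 0.98 ± 0.14 (0.000112) and 0.44 ± 0.14 (0.0391). The DKO call was lost without WT library 2, DKO library 13 or DKO library 14 (limma adjusted p = 0.0603 to 0.104). The interaction was -1.57 ± 0.19 (limma adjusted p = 6.42e-05), or -1.52 ± 0.19 without WT library 4 (1.54e-05).

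Ccnd1 was at 302, 318 and 56.3 CPM in WT, 335, 362 and 355 in MlxKO, 503, 509 and 503 in MycKO and 707, 684 and 700.0 in DKO. The groups did not overlap, and WT library 4 held far less than the other WT libraries. Ccnd1 rose by 1.52 ± 0.47 in MycKO (limma adjusted p = 0.0191) and by 1.98 ± 0.47 in DKO (0.0137). Without WT library 4 these were 0.70 ± 0.09 (limma adjusted p = 2.71e-05) and 1.17 ± 0.09 (1.36e-06). The DKO call was lost without DKO library 13 (limma adjusted p = 0.0511). In MlxKO the difference was 0.99 ± 0.47 (limma adjusted p = 0.113), called only without WT library 3 (0.0314), and 0.18 ± 0.09 without WT library 4 (0.135). Without WT library 4, Ccnd1 was also higher in DKO than in MycKO by 0.46 ± 0.08 (limma adjusted p = 0.000464) and than in MlxKO by 0.99 ± 0.08 (5.87e-07). With it, the same differences had an SE of 0.47 and were not called (limma adjusted p = 0.494 and 0.131). The interaction for Ccnd1 was -0.53 ± 0.67 with and 0.29 ± 0.12 without that library, and was called in neither case (limma adjusted p = 0.539 and 0.0626).

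Ccnd2 was at 219.95, 202 and 124 CPM in WT, 181, 168 and 157 in MlxKO, 221, 284 and 256 in MycKO and 117, 122 and 109 in DKO. DKO libraries were below and MycKO libraries above all others, with WT library 4 close to DKO. Ccnd2 fell by 1.11 ± 0.18 in DKO against MycKO (limma adjusted p = 0.000598) and by 0.60 ± 0.18 against WT (0.0371). The latter was -0.86 ± 0.12 without WT library 4 (limma adjusted p = 0.000153) and was lost without any 1 of 8 other libraries (0.0532 to 0.125), namely WT 2 and 3, MlxKO 6 and 7, MycKO 11 and the 3 of DKO. In MycKO, Ccnd2 rose by 0.51 ± 0.18 (limma adjusted p = 0.0345), a call lost without WT library 4 (0.26 ± 0.12, 0.079), MycKO library 10 or MycKO library 11. The interaction was -1.05 ± 0.26 (limma adjusted p = 0.00558), or -0.79 ± 0.16 without WT library 4 (0.000771).

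Of the S-phase genes, Cdk2 was at 103, 101.4 and 100.1 CPM in WT, 98.9, 87.4 and 91.1 in MlxKO, 84.9, 83.6 and 87.3 in MycKO and 96.6, 96.3 and 100.01 in DKO. Its MycKO libraries were below all WT and DKO libraries. Cdk2 fell by 0.25 ± 0.08 in MycKO (limma adjusted p = 0.029), a call lost without WT library 2 or 3 or MycKO library 10 or 11 (0.055 to 0.0805). The fall was 0.26 ± 0.09 without WT library 4 (limma adjusted p = 0.0306). Its interaction of 0.33 ± 0.12 (limma adjusted p = 0.0393) was lost without any 1 of 9 libraries (0.0561 to 0.0999), namely WT 2 and 3, MlxKO 6 and 7, MycKO 10 and 11 and the 3 of DKO. Ccne2 was at 63.2, 62.5 and 98.4 CPM in WT, 48.5, 31.6 and 37.4 in MlxKO, 79.2, 48.5 and 51.9 in MycKO and 42.2, 53.2 and 58.8 in DKO. It was lower in MlxKO than in WT without overlap, by 0.90 ± 0.23 (limma adjusted p = 0.00978), or by 0.69 ± 0.21 without WT library 4 (0.0158), and the call was lost without MlxKO library 6 (0.0514). In DKO it also lay below all WT libraries, by 0.51 ± 0.23, but was not called (limma adjusted p = 0.137). Without WT library 4 that fall was 0.30 ± 0.21 (limma adjusted p = 0.334). Its interaction of 0.71 ± 0.33 was called only without MycKO library 9 (0.92, limma adjusted p = 0.0289), and was 0.49 ± 0.28 without WT library 4 (0.149). Ccna2 ranged from 175 to 262 CPM, with WT library 4 the highest, and overlapped between all groups. It was called only without WT library 4, as higher in MycKO by 0.30 ± 0.12 (limma adjusted p = 0.0473). Ccne1 ranged from 33.5 to 60.4 CPM and was called by limma in none of the 6 comparisons of immortalized cells, of which MycKO against WT and DKO against MycKO had unadjusted p of 0.0323 and 0.0449. In MycKO against WT it was called by edgeR (0.38, adjusted p = 0.0431), by DESeq2 (0.37, 0.0439) and by limma without MycKO library 10 or 11 (0.42, 0.0477 to 0.0499). Its highest value was that of MycKO library 9, at 60.4 against 42.3 in each of the other MycKO libraries.

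In DKO against MycKO, 4 members were called lower (Ccnd2, Ccnd3, Cdk4 and Cdk6), where 14.6% of all genes were called lower and 14.8% higher. In DKO against MlxKO, the same 4 were called lower, where 13.9% of all genes were called lower and 16.3% higher. Without WT library 4, Ccnd1 was called higher in both. The Cdk4 calls were lost without MycKO library 9 or 11 or DKO library 14 or 15 in the first of these (limma adjusted p = 0.0611 to 0.108) and without MlxKO library 6 or 7 or DKO library 14 in the second (0.0645 to 0.0759). Ccnd3 in DKO against MlxKO was lost without MlxKO library 6 (limma adjusted p = 0.0549). Ccnd2 in DKO against MlxKO (-0.53 ± 0.18, 0.0415) was lost without any 1 of 7 libraries (0.0574 to 0.123), namely the 3 of MlxKO, the 3 of DKO and MycKO 11. The interaction was negative for 4 members and positive for Cdk2, where 23.8% of all genes had a negative and 23.7% a positive one.

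**Figure D2:**
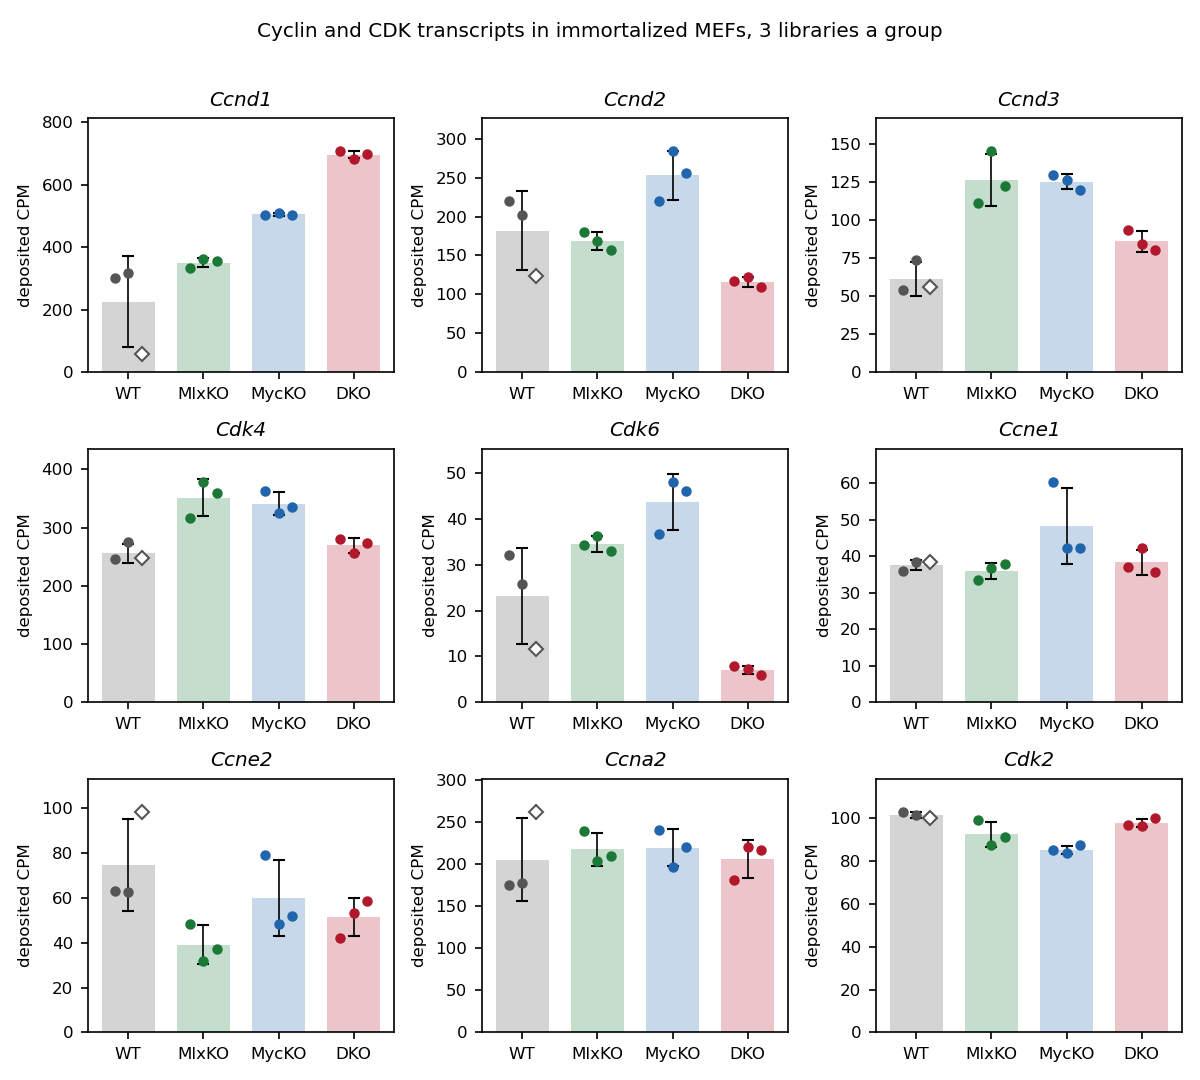
Deposited CPM of the 9 genes in immortalized MEFs by genotype, drawn as for primary MEFs (means, SD, n = 3), with WT library 4 as an open diamond. Cdk6 was lowest in DKO (6.02 to 7.85), Ccnd1 was highest in DKO (684 to 707), and the diamond lies apart from both other WT libraries for Ccnd1, Ccnd2, Cdk6, Ccne2 and Ccna2.

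The effect of each genotype in immortalized cells minus that in primary cells was tested in 1 fit over all 24 libraries (12402 genes). For DKO against WT, 8 of the 9 members differed, 6 with a higher and 2 with a lower effect in immortalized cells, where 11.4% of all genes differed upwards and 9.79% downwards. Ccnd1 differed by 2.62 ± 0.51 (limma adjusted p = 0.000891), or 1.80 ± 0.10 without WT library 4 (5.18e-12), having fallen in primary and risen in immortalized DKO cells. Cdk6 differed by -1.12 ± 0.31 (limma adjusted p = 0.0138), or -1.53 ± 0.19 without WT library 4 (1.94e-06). The S-phase genes, which fell in primary DKO and were not called in immortalized DKO cells, differed by 1.08 ± 0.17 for Ccna2 (limma adjusted p = 0.000138), 0.98 ± 0.26 for Ccne2 (0.0111), 0.85 ± 0.16 for Ccne1 (0.000558) and 0.42 ± 0.10 for Cdk2 (0.00545). Without immortalized WT library 4 they differed by 1.27, 1.19, 0.86 and 0.41 in the same order, all called (limma adjusted p = 1.87e-07 to 0.00551). Cdk4 differed by 0.51 ± 0.15 (limma adjusted p = 0.015) and Ccnd2 by -0.61 ± 0.20 (0.038), the latter lost without any 1 of 10 libraries (0.0514 to 0.116), namely every WT and DKO library but immortalized WT 4 and immortalized DKO 14. Without immortalized WT library 4 these were 0.49 ± 0.15 (limma adjusted p = 0.0144) and -0.86 ± 0.13 (3.31e-05). Ccnd3 differed by 0.50 ± 0.18 (limma adjusted p = 0.0538), and was called without primary MycKO library 10, immortalized WT library 3 or immortalized MlxKO library 6 (0.0104 to 0.0471), and was 0.44 ± 0.18 without immortalized WT library 4 (0.07).

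For MycKO against WT, 5 members differed, all upwards, where 21.4% of all genes differed upwards and 18.2% downwards. Ccnd3 differed by 1.01 ± 0.18 (limma adjusted p = 0.00019), Ccne1 by 0.94 ± 0.16 (9.41e-05), Ccna2 by 0.91 ± 0.17 (0.000355), Ccne2 by 0.81 ± 0.26 (0.0198) and Cdk4 by 0.58 ± 0.15 (0.00372). The Ccne2 call was lost without immortalized WT library 2 or MycKO library 9 (limma adjusted p = 0.0566 to 0.066). Without immortalized WT library 4 the same 5 were called, at 0.95, 0.96, 1.10, 1.02 and 0.55 in that order (limma adjusted p = 5.34e-07 to 0.0039). Ccnd1 differed by 1.13 ± 0.51 (limma adjusted p = 0.0838) and was called without immortalized WT library 2, 3 or 4, at 0.31 ± 0.10 without library 4 (0.00944). Cdk6 differed by 0.77 ± 0.31 (limma adjusted p = 0.0566) and was called without primary MycKO library 10, immortalized WT library 2 or 3 or immortalized MycKO library 9 (0.00748 to 0.0426), but was 0.36 ± 0.19 without immortalized WT library 4 (0.125). For MlxKO against WT, 3 members differed upwards, where 18.2% of all genes differed upwards and 20.3% downwards. These were Ccnd3 by 1.17 ± 0.18 (limma adjusted p = 7.9e-05), Cdk6 by 0.87 ± 0.31 (0.0333) and Cdk4 by 0.43 ± 0.15 (0.0242). Cdk6 was lost without any 1 of 6 libraries (limma adjusted p = 0.0506 to 0.0705), namely primary WT 1 and 2, primary MlxKO 6 and 7, immortalized WT 4 and immortalized MlxKO 6. Cdk4 was lost without any 1 of 7 (limma adjusted p = 0.0533 to 0.0719), namely primary WT 1 and 2, primary MlxKO 5 and 6, immortalized WT 2 and immortalized MlxKO 6 and 7. Ccnd1 (1.01 ± 0.51, limma adjusted p = 0.121) was called without immortalized WT library 2 or 3 (0.019 to 0.0332), but was 0.20 ± 0.10 without library 4 (0.0924). Without immortalized WT library 4, Ccna2 (0.57 ± 0.13, limma adjusted p = 0.00155) and Ccnd2 (-0.38 ± 0.13, 0.0253) were called instead of Cdk6 (0.46 ± 0.19, 0.053). Ccnd3 (1.12 ± 0.18, limma adjusted p = 4.32e-05) and Cdk4 (0.41 ± 0.15, 0.0297) remained called without it.

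**Figure D3:**
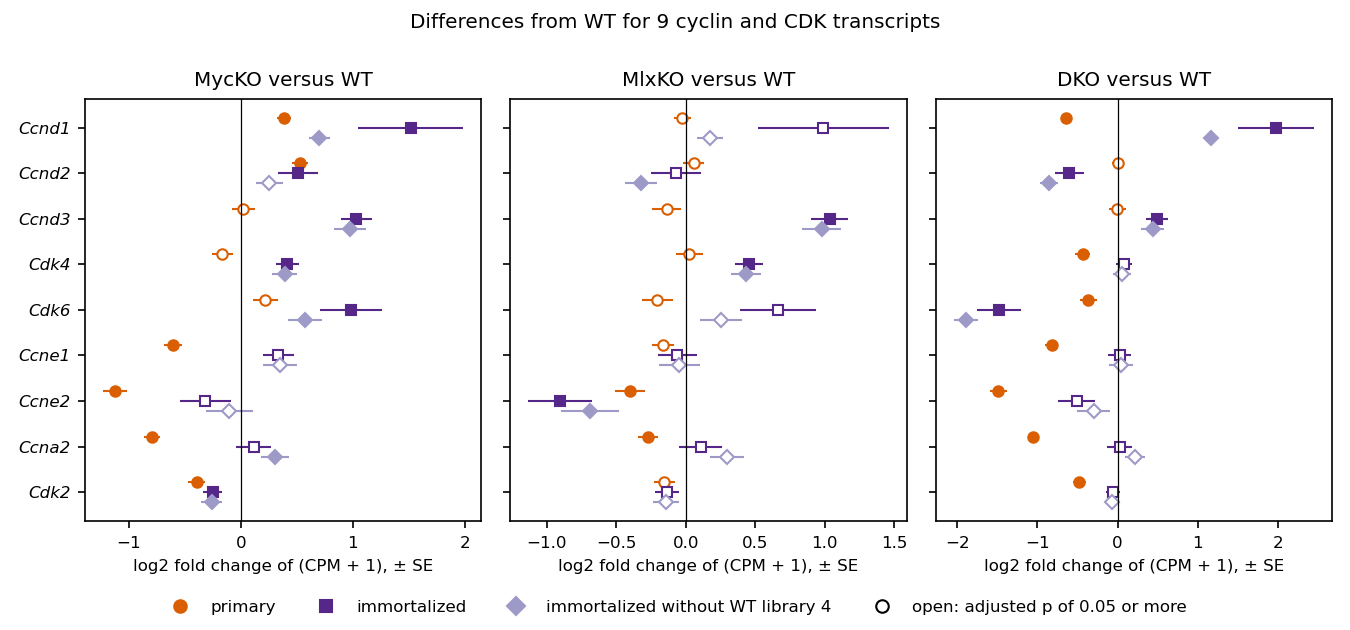
Log2 fold change of (CPM + 1) against WT (x axis, error bars SE) for the 9 genes in MycKO, MlxKO and DKO, in primary cells (circles), immortalized cells (squares) and immortalized cells without WT library 4 (diamonds), with filled symbols for limma adjusted p under 0.05. Primary and immortalized DKO lie on opposite sides of 0 for Ccnd1 (-0.64 and 1.98), and Ccnd1 and Cdk6 move most when WT library 4 is left out.

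Balances between close relatives were compared as log2 ratios of (CPM + 1), with a two-sided exact permutation test that exchanged libraries within each state of the other gene (400 splits, smallest possible p 0.005) and Benjamini-Hochberg adjustment over 16 tests. In immortalized cells the log2 ratio of Ccnd2 over Ccnd1 was -0.46, -0.65 and 1.12 in WT, -0.89 to -1.17 in MlxKO, -0.84 to -1.18 in MycKO and -2.47 to -2.67 in DKO. DKO libraries were below all others, and WT library 4 was far above. Myc loss lowered the ratio by 1.27 (exact p = 0.005, adjusted 0.0267) and Mlx loss by 1.32 (exact p = 0.005, adjusted 0.0267). Without WT library 4 the differences were -0.99 and -1.04, each with an adjusted exact permutation p of 0.0267. In primary cells the ratio of Ccnd2 over Ccnd1 was 1.11 to 1.32 in WT and 1.17 to 1.37 in MlxKO. It was 1.28 to 1.40 in MycKO, overlapping WT, and 1.78 to 1.89 in DKO. Averaged over the Mlx states, Myc loss raised the ratio by 0.35 (exact p = 0.01, adjusted 0.032). This rise was 0.14 where Mlx was intact and 0.56 where Mlx was lost. The call was lost without WT library 1 or 2 or MycKO library 10 (adjusted exact permutation p = 0.0533 to 0.06). Mlx loss changed the ratio by 0.29 on average (exact p = 0.02, adjusted 0.0533), by 0.08 where Myc was intact and 0.50 where Myc was lost. The average was 0.32 without WT library 3 or MlxKO library 7 (adjusted exact permutation p = 0.032 to 0.048). The sign of the Myc effect on this ratio was thus opposite in the 2 kinds of cells, a difference that was not itself tested.

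Ccne2 over Ccne1 in primary cells fell from -0.23 to -0.51 in WT to -0.98 to -1.12 in DKO. Myc loss lowered it by 0.47 (exact p = 0.005, adjusted 0.0267), and Mlx loss changed it by -0.19 (exact p = 0.025, adjusted 0.0571). Cdk6 over Cdk4 in primary cells was higher by 0.34 after Myc loss (exact p = 0.01, adjusted 0.032), or by 0.20 without MycKO library 10 (adjusted exact permutation p = 0.0533). This call was also lost without any 1 of WT libraries 1 to 3, MlxKO library 7 and DKO libraries 13 and 14 (adjusted exact permutation p = 0.0667 to 0.124). In immortalized cells Cdk6 over Cdk4 was -2.89, -3.36 and -4.29 in WT, -2.73 to -3.41 in both single knockouts and -4.95 to -5.29 in DKO. Myc loss changed it by 0.57 where Mlx was intact and by -1.77 where Mlx was lost, and the average of -0.60 was not called (exact p = 0.2, adjusted 0.246), nor was that of -0.79 without WT library 4 (adjusted exact permutation p = 0.124). In primary cells Ccnd3 over Ccnd1 was -0.31 to -0.35 in DKO, above every other primary library (-0.87 to -1.70). Myc loss changed it by -0.36 where Mlx was intact and by 0.75 where Mlx was lost, and Mlx loss by -0.11 where Myc was intact and by 1.00 where Myc was lost. Averaged over these states, Ccnd3 over Ccnd1 gave no called difference in either table (adjusted exact permutation p = 0.1 to 0.465), although without immortalized WT library 2 Myc loss lowered it by 1.24 (0.0457).

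Summed per kilobase of canonical transcript, Ccnd1 made up 28.7 to 30.7% of the D cyclin transcripts in primary WT libraries and 21.05 to 22.04% in primary DKO. These shares depend on the length used. By the union of exons, primary WT held 60.4 CPM per kb of Ccnd1, 71.0 of Ccnd2 and 15.9 of Ccnd3. In immortalized cells it made up 55.0 and 56.4% in WT libraries 3 and 2, 23.9% in WT library 4 and 74.2 to 76.4% in DKO. Ccnd2 was the largest share in every primary library (39.9 to 49.6%) and fell to 7.16 to 8.02% in immortalized DKO.

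**Figure D4:**
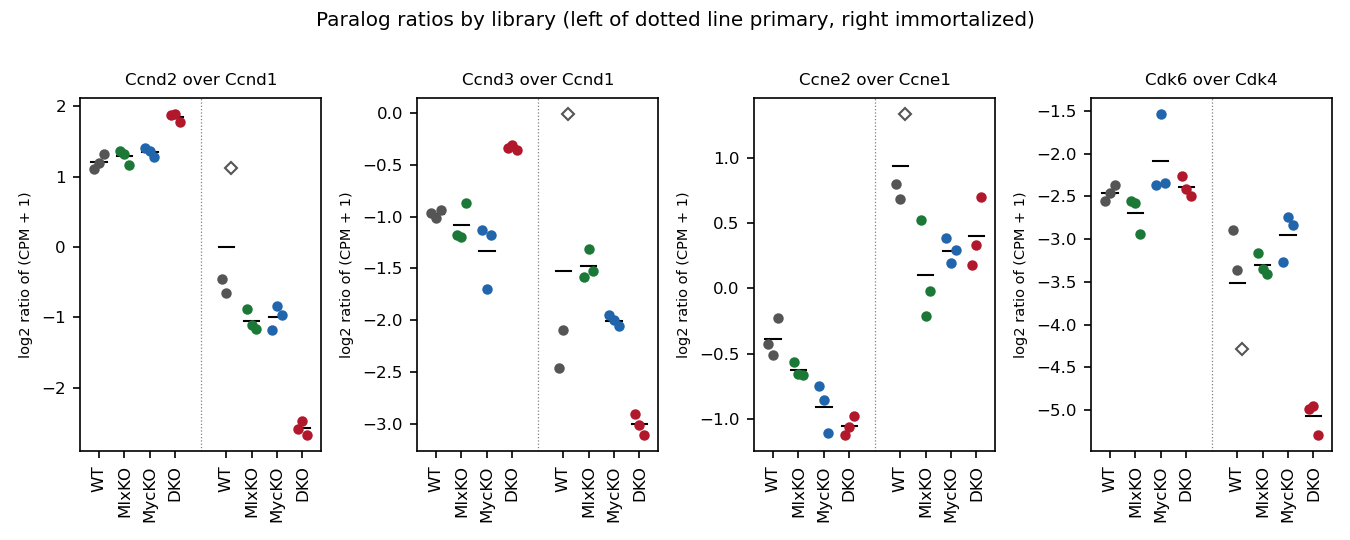
Log2 ratio of (CPM + 1) between related members in each library (y axis), by genotype, for primary (left of the dotted line) and immortalized MEFs (right), with group means as lines and immortalized WT library 4 as an open diamond. Immortalized DKO libraries have the lowest Ccnd2 over Ccnd1 (-2.47 to -2.67) and Cdk6 over Cdk4 (-4.95 to -5.29) of all libraries.

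Other genes of the G1/S pathway moved beside the members in primary cells. All 11 tested replication and proliferation markers fell in primary MycKO (median log2 fold change -0.79, against 0.00 over all genes) and all 11 in DKO (median -1.27). Of these, Mcm6, a subunit of the replicative helicase, fell by 0.96 ± 0.07 in MycKO (limma adjusted p = 2.09e-08), and Cdc6, which loads that helicase, fell by 1.63 ± 0.12 in DKO (1.55e-08). In primary MlxKO 8 of the 11 fell (median -0.28), where 5.14% of all genes were called lower. All 4 mitotic cyclins and kinase (Ccnb1, Ccnb2, Ccnf and Cdk1) fell in MycKO and DKO, and 3 of the 4 in MlxKO. Of 10 E2F and DP factors, 5 fell in MycKO (median -0.17) and 6 in DKO (median -0.29), where 21.9% and 25.5% of all genes were called lower, and the repressor E2f7 fell by 1.07 ± 0.10 in DKO (limma adjusted p = 1.9e-07).

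Of 7 CDK inhibitors in primary cells, 3 were higher and 1 was lower in MycKO (median 0.18), where 20.4% of all genes were higher and 21.9% lower. Cdkn1c (p57) rose by 1.42 ± 0.11 in MycKO (limma adjusted p = 8.46e-08) and by 1.44 ± 0.11 in DKO (4.64e-08), and Cdkn2b (p15, an inhibitor of CDK4 and CDK6) rose by 1.01 ± 0.09 in MycKO (1.47e-07) and 0.43 ± 0.09 in DKO (0.000547). Of 15 genes of CDK activation and turnover, 8 fell and 2 rose in MycKO. Among these Skp2, part of the ligase that degrades p27, fell by 0.78 ± 0.14 in MycKO (limma adjusted p = 0.00033) and by 0.98 ± 0.14 in DKO (3.09e-05). Of the 3 pocket proteins Rbl1 (p107) fell by 0.64 ± 0.10 in MycKO (limma adjusted p = 9.36e-05), and in DKO Rbl1 fell by 0.85 ± 0.10 (4.17e-06) while Rbl2 (p130) rose by 0.38 ± 0.08 (0.000791).

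In immortalized cells the replication markers, like the S-phase members, had medians near 0, at -0.12 in MycKO and -0.12 in DKO, or -0.06 and -0.08 without WT library 4. CDK inhibitors were higher for 4 of 7 and lower for 2 in MycKO, where 24.4% of all genes were called higher and 23.5% lower. These counts were 5 and 2 without WT library 4. Cdkn2d (p19), an inhibitor of CDK4 and CDK6, rose by 1.30 ± 0.15 in MycKO (limma adjusted p = 3.39e-05) and by 0.87 ± 0.15 in DKO (0.00244). Without WT library 4 it rose by 1.43 in MycKO and 0.998 in DKO, and also by 0.72 ± 0.14 in MlxKO (limma adjusted p = 0.00128). E2f1 rose by 1.11 ± 0.10 in MycKO (limma adjusted p = 5.79e-06), 0.63 ± 0.10 in MlxKO (0.001) and 0.75 ± 0.10 in DKO (0.000585), or by 1.10, 0.62 and 0.74 without WT library 4. All 3 pocket proteins fell in immortalized MlxKO, where 19.9% of all genes were called lower, and all 3 also fell without WT library 4. Rb1 fell in MlxKO by 0.84 ± 0.16 (limma adjusted p = 0.00219), the same value without that library. Cdc37, the chaperone partner that folds CDK4, rose by 0.96 ± 0.14 in MlxKO (limma adjusted p = 0.000508) and by 0.72 ± 0.14 in MycKO (0.00119), as Cdk4 did, or by 1.04 and 0.80 without WT library 4.

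Over the 12 primary libraries, which fall into 4 genotype groups, the levels of Ccne1, Ccne2, Ccna2 and Cdk2 ran together, with Pearson r of log2(CPM + 1) between 0.89 (Ccne1 and Cdk2) and 0.98 (Ccne2 and Ccna2). Among all genes with a mean of at least 5 CPM, the nearest to Ccna2 were Hspa8 (r = 0.996) and Pclaf (0.994), those to Ccne1 Nup85 (0.988) and Mcm6 (0.987), those to Ccne2 Ppid (0.987) and Taf1d (0.987), and those to Cdk2 Cdc45 (0.977) and Lrrc59 (0.963). The nearest to Ccnd1 were Nrp2 (0.984) and F2rl1 (0.976), and the nearest to Ccnd2 were Sema5a (0.983) and Ppfia1 (0.980). Ccnd3 was nearest to Sart1 (0.960) and Cby1 (0.959), Cdk4 to Hdgf (0.976) and Ppm1g (0.958), and Cdk6 to Tnfrsf23 (0.945) and Slk (0.941). In immortalized cells Ccnd3 and Cdk4 ran together (r = 0.94), as did Ccnd2 and Cdk6 (0.90). The nearest genes there were Usf1 (0.983) and Ubxn1 (0.980) to Cdk4, Patz1 (0.949) and Tob2 (0.944) to Cdk6, Klc2 (0.982) and Dgcr6 (0.981) to Ccnd3, Igfbp3 (0.954) and Ednrb (0.931) to Ccnd2, and Grn (0.987) and Trp53i11 (0.985) to Ccnd1. For the S-phase members they were 1700123O20Rik (0.949) and Tmem14c (0.927) to Ccne1, Cacybp (0.978) and Zbtb6 (0.970) to Ccne2, Reep5 (0.951) and Aig1 (0.897) to Ccna2, and Tmem161b (0.981) and Ccnl1 (0.969) to Cdk2. Without WT library 4 (11 libraries) the nearest were Wsb2 (0.997) and Chst1 (0.980) to Ccnd1, Gm2115 (0.978) and Parp8 (0.967) to Ccnd2, Arl6ip4 (0.992) and Dtx2 (0.984) to Ccnd3, Tob2 (0.985) and Il17rd (0.980) to Cdk6, and Trim23 (0.968) and Cacybp (0.965) to Ccne2, while the first gene named for Cdk4, Ccne1, Ccna2 and Cdk2 stayed the nearest. The pairs of Ccnd3 with Cdk4 (0.93) and Ccnd2 with Cdk6 (0.90) changed little, whereas Ccnd1 and Cdk6 went from -0.08 to -0.70. These correlations describe libraries that share a genotype and are not independent points.

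Fibroblast markers were present in every library, with the 8 listed summing to 34487 to 46864 CPM in primary and 13562 to 27014 in immortalized cells. The 8 macrophage markers summed to 126 to 242 CPM in primary WT and 144 to 167 in MlxKO. They summed to 20.2 to 24.8 in MycKO and 45.5 to 84.1 in DKO. All 8 fell in MycKO and in DKO, where 21.9% and 25.5% of all genes were called lower. All 4 S-phase members also fell in both of these groups. In MlxKO, Ccne2 (-0.40) and Ccna2 (-0.27) fell as well, whereas the macrophage sums lay within the WT range. Epithelial markers (4 listed) summed to 16.1 to 19.3 CPM in primary WT and 1.497 to 4.36 in the primary knockouts, and endothelial markers (4 listed) to 13.5 to 14.0 in WT and 2.99 to 7.98 in the knockouts, with Pecam1 at or under 3 reads throughout. In immortalized cells the macrophage sums were 5.68 to 11.9 CPM with Ptprc, Adgre1, Tyrobp and Cx3cr1 at or under 3 reads, the endothelial sums were 3.10 to 19.1 and the epithelial sums 0.102 to 5.91. The part of these cells in the members' differences was not tested.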

How the data were processed

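Poly-A RNA of 24 MEF libraries (8 groups of 3) was sequenced, and per the study's methods reads were mapped to GRCm39 with CLC Genomics Workbench. The deposited values are a signal per gene that the authors made by scaling read counts to library size (CPM in the file headers). Columns summed to 915691 to 1077213 rather than 1000000, and 100.0% of nonzero values were whole reads (within 0.1) once divided by the value of 1 read, so each library carries a further scaling factor. The authors' tests combined several tools, and none of their results were used.

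Here limma 3.58.1 (R 4.3.3) was fitted to log2(CPM + 1) with a trended variance, per table of 12 libraries and 4 genotypes, keeping genes that reached 1 CPM in 3 or more libraries, with Benjamini-Hochberg adjustment and a threshold of 0.05. Effects in primary and immortalized cells were compared in 1 fit of 24 libraries. Depth was 15986856 to 20966163 reads a library. The part of counting noise in the spread between libraries was not tested. Alternatives were a pseudocount of 0.1, no filter, a mean of at least 5 CPM, median-ratio scaling, library totals, only the groups compared, edgeR 4.0.16 and DESeq2 1.42.0 on recovered reads, and leaving out each library. The limma, edgeR and DESeq2 fits were tried on simulated data for MycKO against WT. The other comparisons and steps were not. Columns name the group and a library number that the labels do not carry, so replicates have no pairing. Promoters and lengths come from GRCm39 with GENCODE vM39.

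The named genes were the 9 members, Myc and Mlx, at most 2 called genes with the largest change per pathway list and comparison, and the 2 genes most like each member. The members and lists were chosen with earlier results of these data known.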

Additional observations from a re-analysis of the deposited data

Results flagged for a closer look

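Limma's interaction term, the effect of losing Myc in Mlx-null minus that in Mlx-intact cells, was called for Ccnd1 (-1.002 on the log2 scale) and Ccnd2 (-0.58) in primary MEFs. An effect of 4OHT or line that sets WT apart from all knockout groups would also enter this term and cannot be told apart. In immortalized MEFs the same term was called for Cdk6 (-3.13), Ccnd3 (-1.57), Ccnd2 (-1.05), Cdk4 (-0.79) and Cdk2 (0.33), and without immortalized WT library 4 for the same 5 genes.

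The effect of a genotype differed between immortalized and primary cells, by limma's test of that difference, for 16 gene and genotype pairs, or 18 without immortalized WT library 4. For MycKO against WT these were Ccnd3 (1.01), Ccne1 (0.94), Ccna2 (0.91), Ccne2 (0.81) and Cdk4 (0.58). For MlxKO against WT they were Ccnd3 (1.17), Cdk6 (0.87) and Cdk4 (0.43). Without that library Cdk6 in MlxKO (0.46, limma adjusted p = 0.053) was not called, and Ccna2 (0.57) and Ccnd2 (-0.38) in MlxKO and Ccnd1 (0.31) in MycKO were. For DKO against WT they were Ccnd1 (2.62), Ccna2 (1.08), Ccne2 (0.98), Ccne1 (0.85), Cdk4 (0.51), Cdk2 (0.42), Ccnd2 (-0.61) and Cdk6 (-1.12).

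Immortalized WT library 4 had less Ccnd1 (56.3 CPM against 302 and 318), Cdk6 (11.7 against 32.1 and 25.8) and Ccnd2 (124 against 219.95 and 202), and more Ccna2 (262 against 175 and 178) and Ccne2 (98.4 against 63.2 and 62.5) than the other libraries of its group.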

How the results depend on the processing

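No called member changed direction under any alternative, where a sign was compared only if at least one of the fits called it. Of 103 counts of members called under other settings, 100 stayed within 1.5 times the reported count. The exceptions were primary MlxKO against WT without a filter (1 called) and, with only the groups compared, immortalized MycKO (2) and DKO (1) against WT; the cause was not tested. Leaving out 1 library at a time gave 0 to 2 members in primary MlxKO against WT, 1 to 4 in immortalized DKO against WT, 1 to 5 in immortalized DKO against MlxKO and 1 to 4 in the difference between immortalized and primary MlxKO. With a pseudocount of 0.1, Mlx loss in primary cells was called for Ccnd2 over Ccnd1 (0.29) and for Ccne2 over Ccne1 (-0.21). Leave-one-out ranges of log2 ratio differences were 0.32 to 0.38 (Myc loss) and 0.27 to 0.32 (Mlx loss) for Ccnd2 over Ccnd1, 0.20 to 0.41 for Cdk6 over Cdk4 after Myc loss and -0.24 to -0.15 for Ccne2 over Ccne1 after Mlx loss in primary cells, and -1.24 to -0.63 for Ccnd3 over Ccnd1 after Myc loss in immortalized cells. Scaling to library totals moved the median of all genes by 0.16 in immortalized MlxKO against WT, -0.16 in DKO against MlxKO, -0.18 in the interaction, -0.12 in primary DKO against MlxKO and 0.10 to 0.14 in the differences between cell kinds. Under it Cdk4 was called in primary MycKO against WT (-0.27), and Cdk6 in primary DKO against MlxKO (-0.27) and immortalized MlxKO against WT (0.83). Cdk2 lost its immortalized interaction under it (0.15) and by edgeR (0.31, adjusted p = 0.0591). Among differences between cell kinds, library totals lost Ccnd2 in DKO (-0.52) and gained Ccnd3 in DKO (0.58), Ccna2 in MlxKO (0.52) and Cdk6 in MycKO (0.87). Without a filter, Ccnd2 lost its immortalized calls in MycKO and DKO against WT and in DKO against MlxKO (limma adjusted p = 0.0578 to 0.0669). Ccne1 was called in immortalized MycKO against WT by edgeR (0.38) and DESeq2 (0.37). DESeq2 also called Cdk4 in primary DKO against MycKO (-0.29). No paired analysis was possible because the table columns carry no replicate number of the labels. The depth allowed every member to be measured at 109 reads or more.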
